A study of Mus musculus with 11 samples.

Results

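The AP-1 and EGR immediate early genes were followed in the fibrous and cartilaginous covering of the mouse jaw joint, the mandibular condylar fibrocartilage. The 10 genes Fos, Fosb, Fosl1, Fosl2, Jun, Junb, Jund, Egr1, Egr2 and Atf3 were taken by name from a count table of 23420 gene symbols, and all 10 were among the 14531 genes with enough counts to be tested. The 11 samples came from female C57BL/6 mice that had all been ovariectomized at 6 weeks of age, treated for 1 week and sampled at 7 weeks. KO mice (genotype ERalphaKO) are knockouts of estrogen receptor alpha, by an allele that is not given in the sources used here, and WT mice carry the receptor. The groups were KO E2 and WT E2 with 3 samples each, given 17β-estradiol (E2) as a pellet of 0.01 mg made to release over 60 days, and KO Plb with 3 samples and WT Plb with 2 samples, given placebo (Plb). Nothing in the labels ties a sample to 1 animal, so p-values here reflect only how far these samples spread, and some of that spread may be technical.

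Immediate early genes are transcribed within minutes of a growth factor, a stress or a mechanical load, without new protein synthesis, and their messages decay quickly. FOS family proteins (Fos, Fosb, Fosl1, Fosl2) pair with JUN family proteins (Jun, Junb, Jund) to form the transcription factor AP-1, which acts on matrix proteases and many other genes. Atf3 encodes a stress-induced partner of the same basic leucine zipper class, and Egr1 and Egr2 encode zinc finger factors that bind GC-rich sites. In skeletal tissue, Fos is needed for the formation of osteoclasts, and FOS and JUN family members act in chondrocytes and osteoblasts. Estrogen receptor alpha can also act on some genes by binding to AP-1 proteins already on the DNA.

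Promoter sequences are shown for 4 members on which the results turn: Junb and Egr2, the members that passed a test of estradiol against placebo, and Fos and Fosb, FOS genes with 1 library far above the rest of its group. Each line gives the 250 bases before the RefSeq start of the gene on build GRCm38.p6, read 5′ to 3′ on the gene's own strand. Capitals mark a CArG box, the site of serum response factor. They also mark TGACG, which is the first part of a cyclic AMP response element, on either strand, and TATAAA, known as the TATA box. They lie at chr8:84978749-84978998 on the minus strand for Junb, chr10:67537619-67537868 on the plus strand for Egr2, chr12:85473640-85473889 on the plus strand for Fos and chr7:19310046-19310295 on the minus strand for Fosb.
Junb: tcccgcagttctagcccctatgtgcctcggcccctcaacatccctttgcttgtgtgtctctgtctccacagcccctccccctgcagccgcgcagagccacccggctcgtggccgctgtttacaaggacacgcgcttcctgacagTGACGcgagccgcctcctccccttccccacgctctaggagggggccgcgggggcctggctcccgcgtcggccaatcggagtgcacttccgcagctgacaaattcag
Egr2: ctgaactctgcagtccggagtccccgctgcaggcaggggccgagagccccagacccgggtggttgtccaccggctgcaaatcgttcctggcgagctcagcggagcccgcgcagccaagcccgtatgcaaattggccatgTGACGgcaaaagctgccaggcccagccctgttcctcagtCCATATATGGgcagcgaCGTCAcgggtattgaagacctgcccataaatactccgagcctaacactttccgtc
Fos: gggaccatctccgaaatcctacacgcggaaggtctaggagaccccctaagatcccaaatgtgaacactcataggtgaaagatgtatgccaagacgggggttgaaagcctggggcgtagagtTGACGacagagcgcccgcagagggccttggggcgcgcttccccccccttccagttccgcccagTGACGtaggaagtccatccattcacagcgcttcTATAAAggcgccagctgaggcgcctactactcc
Fosb: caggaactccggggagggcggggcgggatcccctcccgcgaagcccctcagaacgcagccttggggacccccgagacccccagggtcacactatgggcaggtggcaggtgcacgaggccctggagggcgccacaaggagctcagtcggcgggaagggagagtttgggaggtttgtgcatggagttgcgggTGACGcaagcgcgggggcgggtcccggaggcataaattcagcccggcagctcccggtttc

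Of the 10 members, 8 had RefSeq promoter windows in the set searched, with 12 windows in all, since Egr2 has 5 annotated starts. Windows on chromosome 18, where Egr1 lies, were left out of the set, so Egr1 was not searched. No window was found for Fosl1. Each window was searched on both strands over the 250 bases before and 50 bases after the start. The Egr2 promoter carried a CArG box, CCATATATGG, that begins 72 bases before the start printed above. Egr2 was the 1 member of 8 with this motif inside the windows searched. Sequence farther from the starts was not searched, so the other members cannot be said to lack a CArG box. A CArG box was in 4 of its 5 windows. The window that begins at chr10:67537316 held a different site, CCTTTTTTGG. The other windows with a CArG box begin close together, share the same CCATATATGG site and are not separate finds. Of all 32851 RefSeq mouse promoter windows outside chromosome 18, 1.63% held one. TGACG stood in 7 of 12 member windows, some of which overlap, against 20.8% of all windows, and in 5 of 8 members (Atf3, Egr2, Fos, Fosb and Junb). It lay 106 bases before the Junb start, 129 and 66 bases before the Fos start, 60 bases before the Fosb start, and 111 bases before the Egr2 start with the other strand's match at 55 bases. TATAAA was present for Fos, 33 bases before the start, and for Junb at its start, in 2 of 12 member windows, against 13.6% of all windows. The full response element TGACGTCA (1.79% of windows, and each match also holds TGACG), the AP-1 site TGAGTCA (5.2%), the EGR site GCGTGGGCG (0.612%) and the palindromic estrogen response element (0.07%) were in the windows of 0 of the 8 members searched. These matches describe letters in a window and not binding.

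Libraries held 15.7 to 25.5 M counts. Esr1, which encodes estrogen receptor alpha, had 2.55 to 4.86 CPM (TMM-scaled counts per M) in KO libraries and 6.43 to 13.4 CPM in WT libraries, without overlap. Its log2 difference averaged over both agents was -1.25 (SE 0.206, adjusted p = 0.00478), over the whole gene and not over the deleted part. The cartilage genes Col2a1 (3706 to 14720 CPM) and Acan (855 to 1800 CPM) were abundant in all 11 libraries. Markers of blood and muscle were also present and uneven: the summed level of 15 neutrophil lineage genes ran between 1.61 and 4750 CPM, and that of 15 skeletal muscle genes between 14.2 and 1468 CPM. In bulk tissue, fewer cells of a type and less RNA per cell cannot be told apart. Library 2 of WT Plb held 16.04% of its counts in the ribosomal precursor Rn45s, against 1.83% to 3.13% in the other libraries.

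The level of each gene per kb of exon sequence gave the order within the family, as a description. Exon lengths came from the GENCODE annotation of GRCm38, whereas the reads were aligned to mm9, so the values per kb are approximate. Jund, a JUN family member that is expressed in most resting cells, was highest at a median of 118.9 CPM per kb over the 11 libraries (104 to 198). Junb followed at 21.7 CPM per kb (18.9 to 32.4), Fosl2 at 18.4 (14.0 to 21.2), Jun at 17.1 (13.02 to 40.6), Fos at 13.9 (10.1 to 51.6) and Egr1 at 13.6 (9.69 to 23.0). The ranges of these 5 genes over libraries overlapped. Their order is that of the medians and was not compared within each library. Atf3 (2.50 CPM per kb, 1.42 to 11.7), Egr2 (1.33, 1.04 to 1.96), Fosb (1.14, 0.616 to 6.91) and Fosl1 (0.577, 0.208 to 1.24) were lowest, and each overlapped its neighbours in the order. Fosl1, Jun, Junb, Jund and Atf3 overlap another annotated gene on the opposite strand (Ccdc85b, Junos, Prdx2, Gm11175 and Gm24748), and since it is not known whether strand was used in counting, reads of such pairs may have been mixed.

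**Figure D1:**
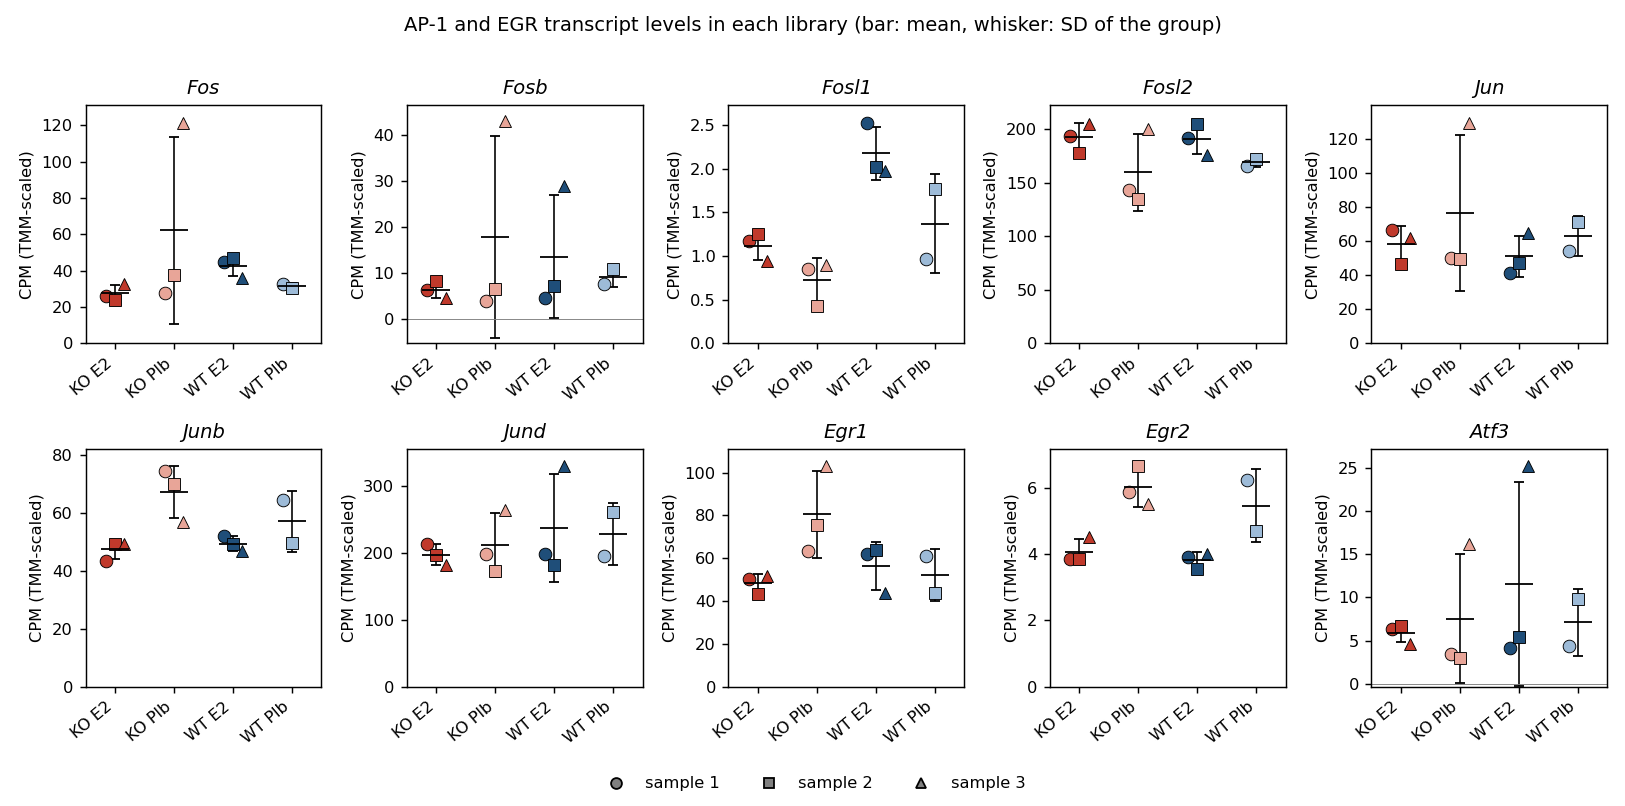
TMM-scaled counts per M (CPM, vertical axes, 1 panel per gene) in each of the 11 libraries, grouped as KO E2, KO Plb, WT E2 and WT Plb. Points are libraries (circle, square and triangle for samples 1, 2 and 3), horizontal bars are group means and whiskers are 1 SD. Sample 3 of KO Plb is the highest of its group for Fos at 121 CPM, and sample 3 of WT E2 is the highest of its group for Atf3 at 25.2 CPM.

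Single libraries stood apart in these genes. Fosb, an inducible FOS family member, had 6.31, 8.31 and 4.60 CPM in KO E2, 3.85, 6.61 and 43.1 CPM in KO Plb, 4.54, 7.13 and 28.9 CPM in WT E2, and 7.59 and 10.8 CPM in WT Plb. Atf3 had 6.31, 6.71 and 4.65 CPM in KO E2, 3.47, 3.05 and 16.1 CPM in KO Plb, 4.14, 5.38 and 25.2 CPM in WT E2, and 4.36 and 9.87 CPM in WT Plb. In both genes sample 3 of KO Plb and sample 3 of WT E2 were far above the other libraries of their groups, and the other 9 libraries lay between 3.85 and 10.8 CPM for Fosb and between 3.05 and 9.87 CPM for Atf3. Sample 3 of KO Plb stood 8.40-fold above the geometric mean of the other KO Plb libraries in Fosb, 4.85-fold in Atf3, 3.77-fold in Fos and 2.59-fold in Jun. It was the highest of its group for 8 of 10 members and over 2-fold above the others for 4 of 10, against 37.4% and 1.02% of all tested genes. Sample 3 of WT E2 stood 5.25-fold above the other WT E2 libraries in Atf3, 5.01-fold in Fosb and 1.73-fold in Jund. It was the highest of its group for 5 of 10 members and over 2-fold above the others for 2 of 10, against 40.6% and 1.18% of all tested genes, and it was the lowest of its group for Fos (0.789-fold) and Egr1 (0.693-fold). These 2 libraries therefore differed in which members were high.

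Other rapid-response and stress genes moved with the same libraries. Among 23 tested immediate early genes outside the family, 17 were highest in sample 3 of KO Plb within its group, against 37.4% of all tested genes, with Nr4a1, an orphan nuclear receptor, 3.63-fold and Dusp1, a phosphatase of MAP kinases, 3.05-fold above the others. All 10 heat shock genes listed were highest in that library, led by Hspa1b (4.05-fold), Hsph1 (3.96-fold) and Hspa1a (3.60-fold). In sample 3 of WT E2, 16 of 23 immediate early genes were highest of the group, with Nr4a3 at 4.39-fold, and 9 of 10 heat shock genes, with Hspa1a at 4.01-fold, against 40.6% of all tested genes. Summed over the 10 genes, heat shock levels were 1013, 990 and 1625 CPM in KO E2, 856, 809 and 1558 CPM in KO Plb, 893, 920 and 1360 CPM in WT E2, and 1026 and 1519 CPM in WT Plb. Sample 3 of KO E2 and sample 2 of WT Plb were thus also high in heat shock genes. Sample 3 of KO E2 was the lowest of its group for Fosb and Atf3, and sample 2 of WT Plb was the higher of its group for both, by 1.42-fold and 2.24-fold. The part of the heat shock response in the levels of the family was not tested.

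**Figure D2:**
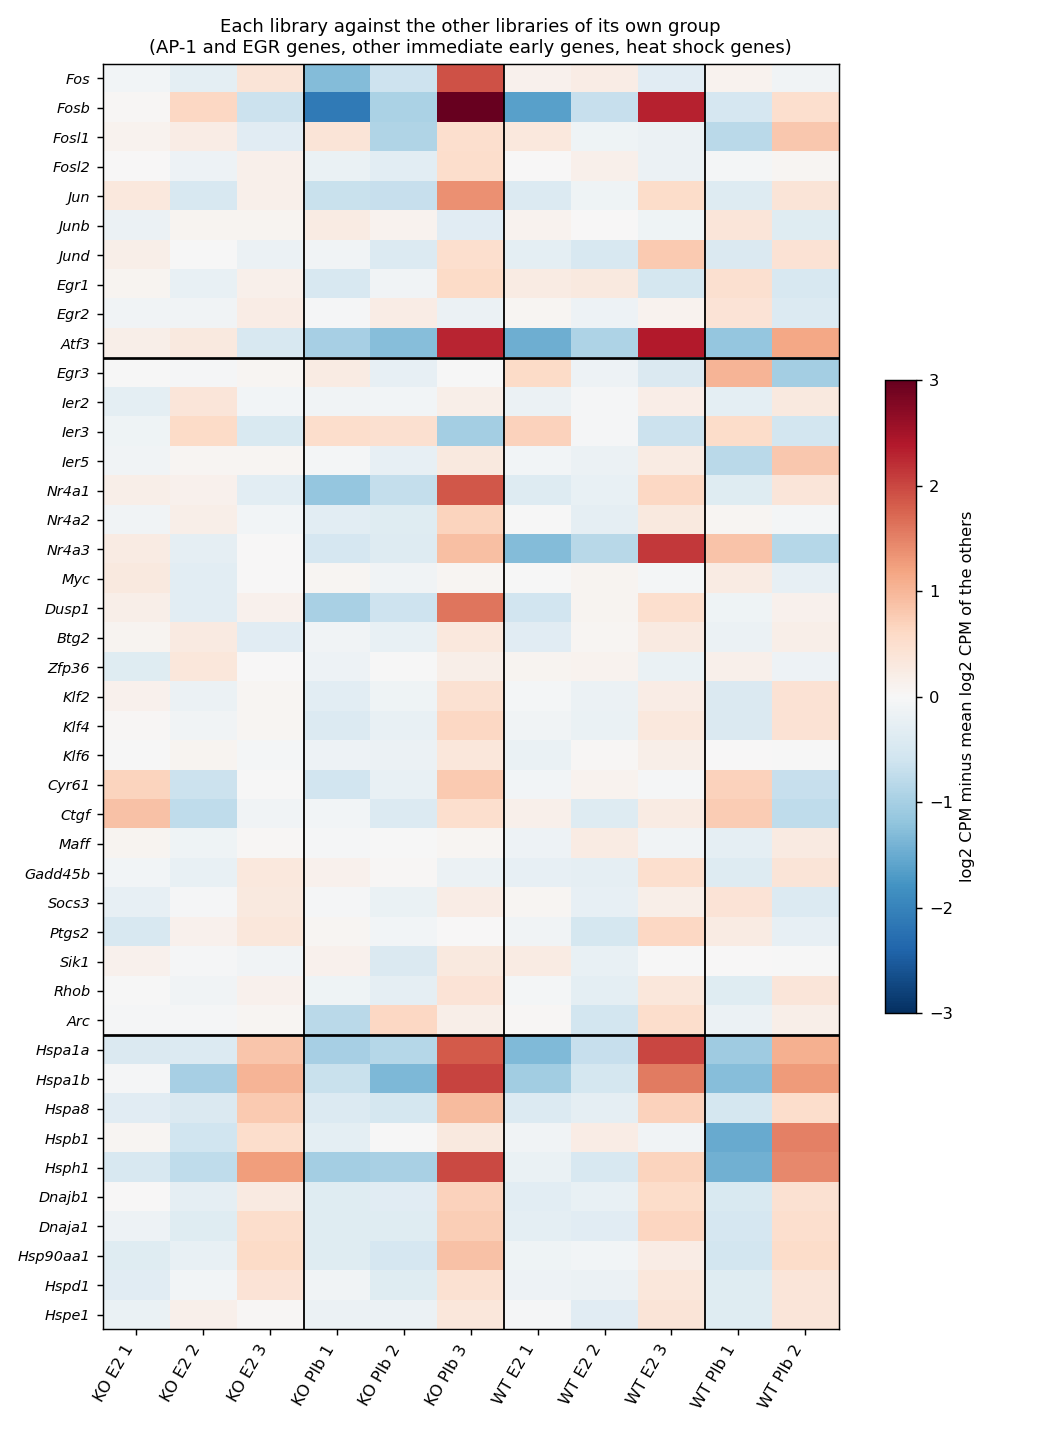
Each row is a gene of the family (top block), of the other immediate early genes (middle block) or of the heat shock genes (bottom block), and each column is a library. Colour shows log2 CPM minus the mean log2 CPM of the other libraries of the same group (red higher, blue lower, scale from -3 to 3); sample 3 of KO Plb is red for Fos (1.92), Fosb (3.07), Jun (1.37) and Atf3 (2.28), and sample 3 of WT E2 for Fosb (2.32) and Atf3 (2.39).

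The effect of estradiol without the receptor was taken from KO E2 against KO Plb. Junb was the 1 member called (adjusted p under 0.05 in the quasi-likelihood test of edgeR, adjusted by Benjamini-Hochberg over 14531 genes). Junb encodes a JUN protein that often restrains the activity of Jun, and it had 43.5, 49.4 and 49.4 CPM in KO E2, against 74.5, 70.1 and 57.1 CPM in KO Plb. All 3 KO E2 libraries were below all 3 KO Plb libraries. Its mean fell to 47.5 ± 3.40 CPM in KO E2, against 67.2 ± 9.02 CPM in KO Plb (SD, n = 3 each), a log2 fold change of -0.50 (SE 0.117, adjusted p = 0.0435). Of all tested genes 2.73% were called in this comparison (396 genes), with 2.36% higher and 0.365% lower in KO E2. With the replicate number as a block, 629 genes were called (542 higher and 87 lower in KO E2) and Junb kept its call (log2 -0.49, adjusted p = 0.0364). The Junb call rested on a narrow margin. It was lost in 11 of 22 alternatives (adjusted p up to 0.179, without sample 1 of KO Plb), among them the omission of any 1 of the KO E2 or WT E2 libraries or of KO Plb 1 or 2, and it was kept without sample 3 of KO Plb (log2 -0.61, adjusted p = 0.0236).

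The EGR genes lay on the same side. Egr1, a growth factor and load-responsive zinc finger gene, had 50.1, 43.4 and 51.7 CPM in KO E2, against 63.3, 75.5 and 103 CPM in KO Plb. The groups did not overlap, but the log2 fold change of -0.73 (SE 0.202) had an adjusted p of 0.0936, and in DESeq2 it passed (adjusted p = 0.00575). Egr2, which is known from nerve myelination and is also induced in stimulated connective tissue cells, had 3.85, 3.86 and 4.51 CPM in KO E2, against 5.88, 6.66 and 5.52 CPM in KO Plb. These groups did not overlap either (log2 -0.56, SE 0.170, adjusted p = 0.114). Junb, Egr1 and Egr2 were thus lower in every KO E2 library than in any KO Plb library, a pattern that 12.4% of all tested genes showed in that direction.

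The inducible FOS and JUN genes had wide intervals in KO. Fos, the founding member of the family, had 26.1, 23.7 and 32.7 CPM in KO E2, against 27.6, 37.4 and 121 CPM in KO Plb. The groups overlapped, and sample 3 of KO Plb set the size of the difference: the log2 fold change was -1.17 (SE 0.514, adjusted p = 0.31) with it and -0.24 (SE 0.166, adjusted p = 0.466) without it. Jun, the main partner of Fos, had 66.7, 46.4 and 61.9 CPM in KO E2, against 50.2, 49.8 and 130 CPM in KO Plb (log2 -0.39, adjusted p = 0.699). The estimates for Fosb (-1.49), Jun, Jund (-0.10) and Atf3 (-0.37) changed sign without that library, to 0.28, 0.22, 0.08 and 0.84, and none of these passed with or without it. Across the 10 members the median log2 fold change was -0.447, against -0.00255 for all tested genes, with 8 of 10 below 0. Without sample 3 of KO Plb the median was 0.15 and 4 of 10 were below 0.

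**Figure D3:**
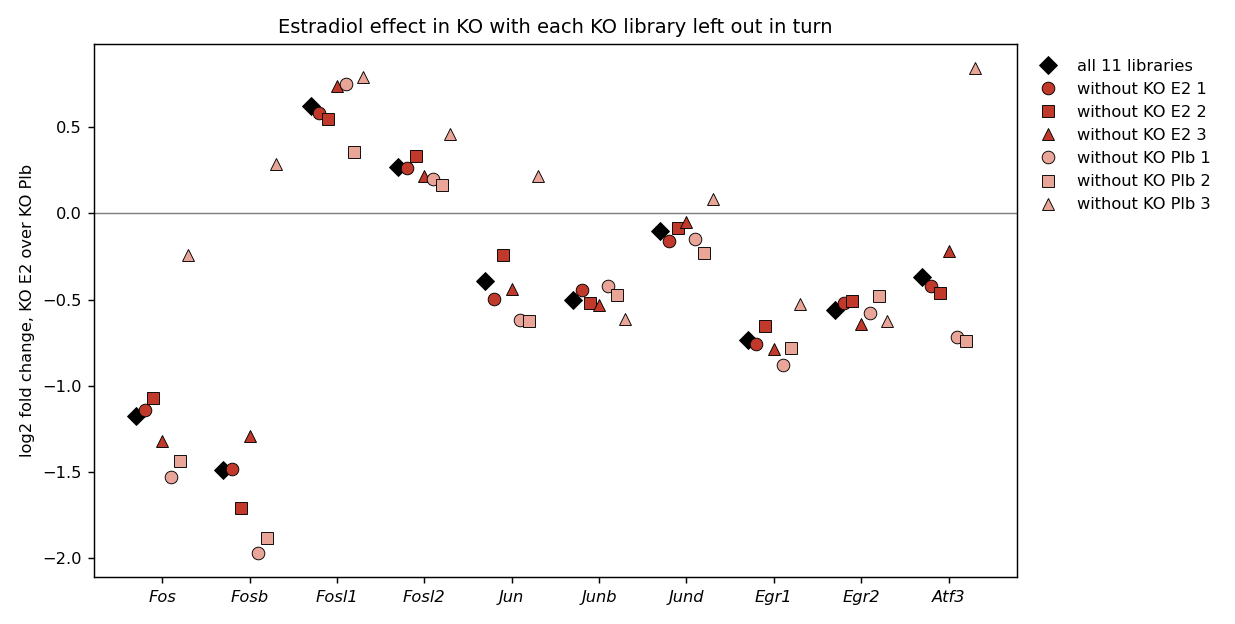
Log2 fold change of KO E2 over KO Plb (vertical axis) for each gene, with all 11 libraries (black diamonds) and with each KO library left out in turn (red for KO E2, pink for KO Plb; circle, square and triangle for samples 1, 2 and 3). Without sample 3 of KO Plb (pink triangles) Fos moves to -0.24 and Fosb to 0.28, while Junb stays below 0 in all 7 fits.

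Fosl1 and Fosl2, the FOS-related genes without a strong transactivation domain, had the 2 positive estimates in KO. Fosl2 had 194, 178 and 205 CPM in KO E2, against 143, 135 and 201 CPM in KO Plb. Only sample 3 of KO Plb reached the level of KO E2. The log2 fold change was 0.27 (SE 0.131, adjusted p = 0.329), and without sample 3 of KO Plb it was 0.46 and was called (adjusted p = 0.0375). Fosl1 had 21, 21 and 21 counts (1.17, 1.25 and 0.94 CPM) in KO E2, against 20, 9 and 21 counts (0.85, 0.42 and 0.89 CPM) in KO Plb. Its groups did not overlap (log2 0.62, SE 0.365, adjusted p = 0.433), but counts this low give little precision. Higher levels without overlap were seen in 12.4% of all tested genes in this comparison. Jund had 214, 197 and 183 CPM in KO E2, against 198, 173 and 265 CPM in KO Plb, and the groups overlapped (SE 0.233, adjusted p = 0.882).

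Cell markers moved with this comparison. All 15 neutrophil lineage genes tested had positive log2 fold changes in KO E2 and 1 was called, with sums of 1309 to 4750 CPM in KO E2, against 1.61 to 766 CPM in KO Plb, where Elane, Ltf, Fcnb, Mmp8 and Cxcr2 had no count in at least 1 library. All 13 B cell lineage genes also had positive log2 fold changes and 1 was called. Their sums were 223 to 389 CPM in KO E2, against 105 to 235 CPM in KO Plb. All 7 erythroid genes tested were positive too and 0 were called, with sums that overlapped between the groups. Of 14 skeletal muscle genes tested, 1 had a positive log2 fold change and 0 were called, with sums of 14.2 to 19.6 CPM in KO E2, against 97.4 to 824 CPM in KO Plb. Of the muscle markers, Myh4 had no count in any KO Plb library. The part of these cells in the Junb, Egr1 and Egr2 levels was not tested.

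In WT mice, with the receptor, 0 of 10 members were called for estradiol, against 225 genes or 1.55% of all tested in edgeR (95 higher and 130 lower, but 300 higher and 89 lower without scaling), and DESeq2 and limma-voom also called 0 members. An unadjusted p under 0.05 was found for 1 member and for 2038 of all tested genes. That member was Egr2, with 3.91, 3.54 and 3.998 CPM in WT E2, against 6.25 and 4.69 CPM in WT Plb. All 3 WT E2 libraries were lower than both WT Plb libraries (log2 -0.52, SE 0.190, adjusted p = 0.219). Lower levels without overlap were seen in 13.8% of all tested genes. Junb had 52.1, 49.4 and 46.8 CPM in WT E2, against 64.6 and 49.8 CPM in WT Plb, and the groups overlapped (log2 -0.21, SE 0.130, adjusted p = 0.534). Egr1 had 62.2, 63.8 and 43.6 CPM in WT E2, against 60.8 and 43.5 CPM in WT Plb (log2 0.11, SE 0.227, adjusted p = 0.89).

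Among the FOS genes, 3 were higher in every WT E2 library than in any WT Plb library, a pattern shown by 13.2% of all tested genes. Fos had 44.8, 46.7 and 36.1 CPM in WT E2, against 32.8 and 30.3 CPM in WT Plb (log2 0.43, SE 0.578, adjusted p = 0.824). Fosl2 had 192, 205 and 176 CPM in WT E2, against 166 and 172 CPM in WT Plb (log2 0.18, SE 0.147, adjusted p = 0.675). Fosl1 had 64, 44 and 48 counts (2.53, 2.02 and 1.98 CPM) in WT E2, against 18 and 26 counts (0.97 and 1.77 CPM) in WT Plb (log2 0.68, SE 0.387, adjusted p = 0.49). None of the 3 passed. The model shares 1 estimate of spread over all 4 groups, and for Fos that estimate includes the KO Plb library at 121 CPM. Without that library Fos did not pass in edgeR either (log2 0.43, SE 0.168, adjusted p = 0.26). With only the WT groups fitted it also did not pass (log2 0.43, adjusted p = 0.245). Jun had 41.5, 47.0 and 64.7 CPM in WT E2, against 54.5 and 71.3 CPM in WT Plb, and Jund had 199, 183 and 330 CPM in WT E2, against 195 and 262 CPM in WT Plb. The groups overlapped for Fosb (log2 0.56, SE 1.17), Jun (-0.30, SE 0.433), Jund (0.05, SE 0.26) and Atf3 (0.72, SE 1.01). Without sample 3 of WT E2 the estimates for Fosb, Jund and Atf3 were -0.66, -0.26 and -0.57.

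Cell markers moved with this comparison too. Of 13 B cell lineage genes 7 were called lower, with sums of 19.3 to 22.9 CPM in WT E2, against 65.0 to 78.6 CPM in WT Plb. All 15 neutrophil lineage genes had negative log2 fold changes and 0 were called, with sums of 9.12 to 45.0 CPM in WT E2, against 226 to 508 CPM in WT Plb. All 11 osteoclast genes had positive log2 fold changes and 2 were called, with sums of 12950 to 13330 CPM in WT E2, against 9287 to 11180 CPM in WT Plb. Of 11 osteoblast and osteocyte genes 2 were called higher, but only 5 had positive log2 fold changes, with a median of -0.185. Their sums were 10190 to 10570 CPM in WT E2, against 7677 to 9232 CPM in WT Plb. Ibsp, 1 of the 11, alone had a mean of 5991 CPM in WT E2, against 3745 CPM in WT Plb. The part of these cells in the levels of the family in WT was not tested.

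**Figure D4:**
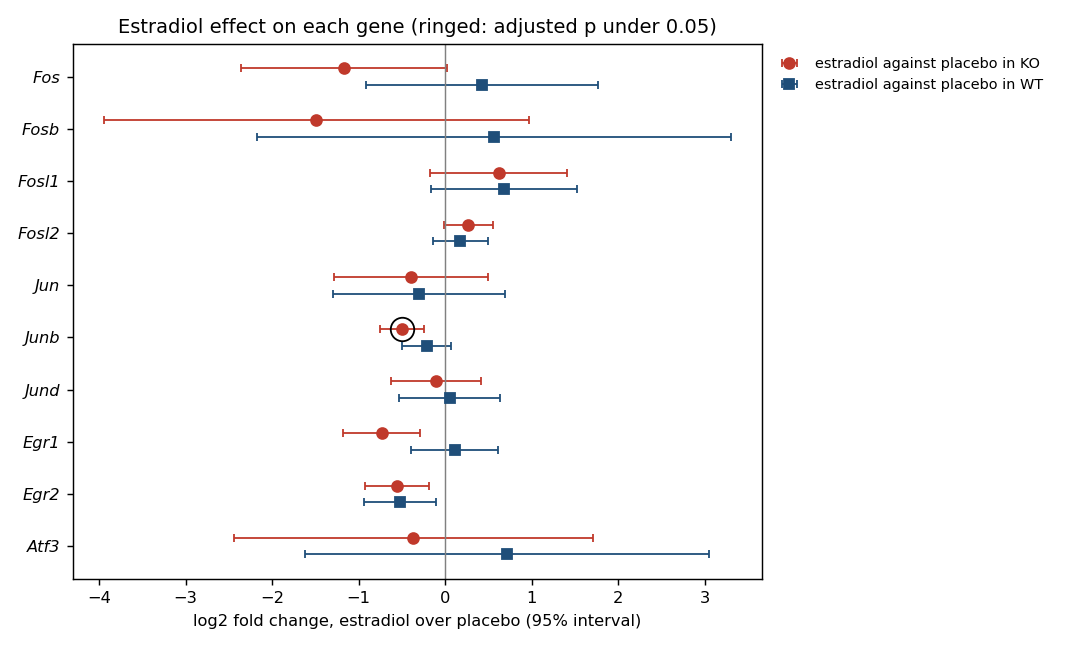
Log2 fold change of estradiol over placebo (horizontal axis) for each gene in KO (red circles) and WT (blue squares), with 95% intervals from the quasi-likelihood fit. The 1 ringed point is Junb in KO at -0.50, the only estimate with an adjusted p under 0.05, and the intervals of Fosb and Atf3 span 0 widely in both genotypes.

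The estradiol effects of the 2 genotypes were compared as the WT effect minus the KO effect. The interaction was called for 0 of 10 members in edgeR, DESeq2 and limma-voom, against 167 genes or 1.15% of all tested (45 with a higher and 122 with a lower effect in WT, and 55 and 81 without scaling). Egr1 was the 1 member with an unadjusted p under 0.05, as were 1683 of all tested genes (difference 0.85, SE 0.305, unadjusted p = 0.0189, adjusted p = 0.27 in edgeR). For Fos the difference was 1.60 (SE 0.777, adjusted p = 0.516), and it was 0.67 (adjusted p = 0.265) without sample 3 of KO Plb. For Junb it was 0.29 with a 95% interval of -0.09 to 0.67, so its call in KO and not in WT does not show that the effects differ. For Egr2 it was 0.04 with a 95% interval of -0.52 to 0.59.

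The estradiol effect averaged over both genotypes was added after the data were seen. Egr2 and Junb fell in this average, 2 of 10 members called, against 580 genes or 3.99% of all tested, with 2.11% higher and 1.89% lower under estradiol (306 and 274 genes, but 660 and 143 without scaling). Egr2 averaged 3.95 CPM over the estradiol groups and 5.74 CPM over the placebo groups (log2 -0.54, SE 0.128, adjusted p = 0.0351). Its 6 of 6 estradiol libraries were below 5 of 5 placebo libraries. The share of that pattern over all tested genes was not counted, but 2.59% were lower without overlap within both genotypes. Junb averaged 48.5 CPM over the estradiol groups and 62.2 CPM over the placebo groups (log2 -0.36, SE 0.0874, adjusted p = 0.0421). Both calls were lost with the replicate number as a block (adjusted p = 0.0547 for Egr2 and 0.0672 for Junb), and over 21 alternatives Egr2 kept its call in 12 and Junb in 9. Fosl1 (log2 0.65, SE 0.266, adjusted p = 0.212) and Fosl2 (log2 0.22, SE 0.0984, adjusted p = 0.254) did not pass. Fosl2 passed without sample 3 of KO Plb (log2 0.32, adjusted p = 0.0213). Without overlap in both genotypes, Fosl1 was higher and Egr2 was lower under estradiol, as were 2.37% and 2.59% of all tested genes.

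Genotype was compared within each agent, in libraries shared with the estradiol comparisons. Under placebo, 0 of 10 members were called, against 1 gene (0.00688% of all tested), while DESeq2 called 38 genes, and DESeq2 and limma-voom called 0 members. Fosl1 was lower in every KO Plb library than in any WT Plb library (log2 -0.90, SE 0.403, adjusted p = 0.539), a pattern that 13.8% of all tested genes showed, and Egr1 was higher in every KO Plb library (log2 0.62, SE 0.229, adjusted p = 0.531), as were 13.2% of all tested genes. The unadjusted p of both was under 0.05, as it was for 1338 of all tested genes. Fos differed by 0.98 (SE 0.585, adjusted p = 0.609), and by 0.04 without sample 3 of KO Plb. Junb differed by 0.23 (SE 0.131, adjusted p = 0.583).

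Under estradiol, 1667 genes or 11.5% of all tested were called between KO and WT (7.27% higher and 4.2% lower in KO), and 0 of 10 members were among them in edgeR, DESeq2 and limma-voom. An unadjusted p under 0.05 was found for 1 member, Fosl1, and for 3909 of all tested genes. Fos was lower in all 3 KO E2 libraries than in all 3 WT E2 libraries (log2 -0.63, SE 0.512, adjusted p = 0.484). Fos was called in 3 of 22 alternatives, over which the adjusted p ran up to 0.675. It was called when only these 2 groups were fitted (log2 -0.63, adjusted p = 0.0234), without sample 3 of KO Plb (log2 -0.63, adjusted p = 0.0207), and without that library and sample 3 of WT E2 together (log2 -0.73, adjusted p = 0.0234). In all 3 of these fits the KO Plb library with 121 CPM of Fos was absent from the estimate of spread. Fosl1, which encodes a FOS-related protein active in bone-forming cells, was also lower in all 3 KO E2 libraries (log2 -0.96, SE 0.342, adjusted p = 0.0927), and lower levels without overlap were seen in 16.9% of all tested genes. Egr1 (-0.22, adjusted p = 0.524) and Junb (-0.06, adjusted p = 0.79) overlapped between KO E2 and WT E2.

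Averaged over both agents, a contrast added after the data were seen, Fosl1 had 0.919 CPM in KO and 1.77 CPM in WT (log2 -0.93, SE 0.264, adjusted p = 0.052). Under each agent it was lower in all 3 KO libraries than in the WT libraries, at 9 to 64 counts per library. Of all tested genes 13.8% under placebo and 16.9% under estradiol were lower without overlap, and the share for both together was not counted. Fosl1 lay just outside the threshold, against 1069 genes or 7.36% called among all tested (4.59% higher and 2.77% lower in KO, or 667 and 402 genes, but 1104 and 188 without scaling). DESeq2 called it (adjusted p = 0.028), as did the fit without sample 1 of WT Plb (adjusted p = 0.0287). Osteoclast markers moved with genotype under estradiol: 7 of 11 were called lower and 11 of 11 had negative log2 differences, with sums of 8442 to 9970 CPM in KO E2, against 12950 to 13330 CPM in WT E2, and none was at 0 in any library. Macrophage markers were called lower in 8 of 10, with sums of 612 to 757 CPM in KO E2, against 981 to 1163 CPM in WT E2. The part of these cells in the Fos and Fosl1 levels was not tested.

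The genes around the family were counted by list. In KO E2 against KO Plb, 0 members were called in any of 7 lists: 23 other immediate early genes, 17 other basic leucine zipper partners, the EGR corepressors Nab1 and Nab2, 21 MAP kinase and serum response factor genes upstream, 10 feedback inhibitors, 13 AP-1 target genes and 10 heat shock genes. Over all tested genes 2.73% were called. Of these 96 genes 12 had an unadjusted p under 0.05, as had 2392 of all tested genes, and DESeq2 called 6 and limma-voom 1. In WT E2 against WT Plb, 1 gene of these lists was called, against 1.55% of all tested genes. It was Ibsp, a bone matrix sialoprotein and AP-1 target, which rose to 5991 ± 146 CPM in WT E2 (n = 3), against 3745 ± 446 CPM in WT Plb (n = 2; log2 0.68, SE 0.137, adjusted p = 0.0298), and the call was lost in 7 of 22 alternatives. Ibsp was also called higher in the averaged estradiol effect (log2 0.37, SE 0.0908, adjusted p = 0.0407), the 1 gene of these lists called there, and kept that call in 13 of 21 alternatives. Ibsp is itself 1 of the 11 osteoblast and osteocyte markers. For the interaction edgeR called 0 of the 96 genes (12 with an unadjusted p under 0.05, 3 called in DESeq2), and for KO against WT under placebo also 0 (14 with an unadjusted p under 0.05, 1 called in DESeq2).

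Between KO E2 and WT E2, 11 of the 96 genes were called, beside 11.5% of all tested genes. Among the 23 other immediate early genes, 2 were higher and 1 lower in KO. Btg2, an antiproliferative gene, rose to 43.5 ± 6.00 CPM in KO E2, against 18.0 ± 2.55 CPM in WT E2 (log2 1.27, SE 0.139, adjusted p = 0.000181), Sik1 by 0.55 and Gadd45b fell by 0.56 on the log2 scale. Dusp2, a phosphatase of MAP kinases that is abundant in blood cells, was the 1 feedback gene called, at 6.30 ± 1.07 CPM in KO E2, against 0.763 ± 0.138 CPM in WT E2 (log2 3.04, SE 0.271, adjusted p = 3.81e-05). Upstream, Rps6ka1 (log2 1.63), Mkl1 (0.46) and Elk4 (0.53) rose, 3 of 21, and Creb1 rose among 17 partners (0.45). Of 13 AP-1 target genes, 3 fell in KO E2: Ibsp to 2747 ± 323 CPM, against 5991 ± 146 CPM in WT E2 (log2 -1.12, adjusted p = 0.000174), Timp1, an inhibitor of matrix proteases (-0.37), and Vegfa, a vessel growth factor (-0.40). Blood lineage markers were higher in the same comparison: 11 of 15 neutrophil lineage genes were called, with sums of 1309 to 4750 CPM in KO E2, against 9.12 to 45.0 CPM in WT E2, where Elane, Mpo, Ctsg, Fcnb and Cebpe had no count in at least 1 library, and 13 of 13 B cell lineage genes were called, with sums of 223 to 389 CPM, against 19.3 to 22.9 CPM in WT E2, where Rag1 and Rag2 had no count in at least 1 library. Their part in the Dusp2, Btg2 and Rps6ka1 levels was not tested. Averaged over both agents, 9 of the 96 genes were called, against 7.36% of all tested genes: Btg2, Sik1, Creb1, Elk4 and Dusp2 were higher in KO, and Gadd45b, Ibsp, Timp1 and Plau were lower. Plau, which encodes the protease urokinase, was the 1 of these not called under estradiol (log2 -0.50, SE 0.126, adjusted p = 0.0354), and it kept its call in 12 of 21 alternatives.

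The genes outside the family whose pattern over the 11 libraries was most like the mean of the standardized members were sought among 13150 tested genes with a mean of at least 1 CPM. Dusp1 had the highest Pearson correlation (r = 0.925), followed by Nr4a1 (0.853), Acp6 (0.848), Has1 (0.823), Sh3bp5l (0.817) and Klf6 (0.816). With the group means removed the correlations were 0.969, 0.961, 0.836, 0.832, 0.864 and 0.902, so the likeness lay within groups. Sample 3 of KO Plb and sample 3 of WT E2 were the 2 libraries farthest from the median of the mean of the standardized members. Without them the correlations over the 9 remaining libraries were 0.276, 0.492, 0.358, 0.401, 0.491 and -0.395. Since these libraries were picked by that same mean, lower correlations without them are in part built into the choice. Dusp1 had 47.6, 37.9 and 46.4 CPM in KO E2, 39.0, 45.9 and 129 CPM in KO Plb, 44.1, 59.6 and 72.3 CPM in WT E2, and 40.8 and 44.3 CPM in WT Plb, with the same 2 libraries highest. These points share libraries and depth, and the correlations are given as a description.

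The authors' deposited tables, which have the columns of DESeq2 output, called 2 members for KO_E2 over KO_Plb: Junb (log2 -0.49, adjusted p = 0.00195) and Egr1 (log2 -0.72, adjusted p = 0.000491), among 1074 genes (7.52%). In the authors' deposited table of KO_E2 over WT_E2, Fos was called (log2 -0.62, adjusted p = 0.00112), among 1959 genes (13% of those with an adjusted p). The authors' deposited tables called 0 members for WT_E2 over WT_Plb (497 genes, 3.34%), for KO_Plb over WT_Plb (36 genes, 0.241%) and for KO_E2 over WT_Plb (622 genes, 4.41%), which mixes genotype and agent. The authors' deposited table of KO_Plb over WT_E2, which also mixes genotype and agent, called 4 members among 2133 genes (14.2%): Fosl1 (-1.42), Junb (0.44), Egr1 (0.51) and Egr2 (0.64).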

How the data were processed

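The members and gene lists were chosen with earlier results of these data known. Poly-A RNA from 11 samples was sequenced. The submitters' processing notes name bcl2fastq 2.17, TopHat and build mm9. How reads were assigned to genes, with which annotation and with or without strand, is not stated there. The deposited table holds raw counts for 23420 symbols, of which 5218 had no count and 27 had been turned into dates. The authors also deposited 6 comparison tables, with log2 fold changes, a test score and p-values per the file headers.

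In R 4.3.3, edgeR 4.0.16 kept 14531 genes (filterByExpr, count of at least 10, total of at least 15; 99.98% of counts), scaled libraries by TMM and fitted a robust quasi-likelihood model to 4 groups over 11 samples (7 residual degrees of freedom). P-values were adjusted by Benjamini-Hochberg over the 14531 genes of each of 7 comparisons, 2 of them added after the data were seen, and genes were called at an adjusted p under 0.05. SE is the absolute log2 fold change over the square root of F. CPM are means ± SD of TMM-scaled values, and their precision is limited by counts, which are not independent molecules. All 10 members are reported. Of the 7 pathway lists, every called gene is named, up to 4 with the smallest p per list and comparison, and the cell marker lists are given as counts and sums. The 6 genes most like the family were ranked by Pearson correlation of log2 CPM (prior count 2) with the mean of the members' z-scores.

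Alternatives were DESeq2 1.42.0, limma-voom (limma 3.58.1), RLE size factors, no scaling, no filter, a stricter filter (1 CPM in 3 samples), omission of Rn45s, only the groups compared, the replicate block, a threshold of 0.1, each library left out, and both sample 3 of KO Plb and sample 3 of WT E2 left out (added after the data were seen). Same-numbered KO Plb and KO E2 samples deviated together (r = 0.29, 0.386 and 0.142), but over all groups 7 of 15 same-numbered pairs had r over 0.1. Same-numbered WT Plb and WT E2 samples went the other way (r = -0.203 and -0.159). Pairs with different numbers were not compared, and the labels do not say what a number marks, so whether the numbers pair samples is not known. The main test left samples unpaired, and the replicate block was fitted over all 4 groups. No 2 libraries of a group agreed within sampling noise (chi-square per gene of at least 9.92). The edgeR test was also run on counts simulated from these libraries' means and sizes, with 2-fold and 4-fold changes in KO E2 and none in WT.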

Additional observations from a re-analysis of the deposited data

How the results depend on the processing

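No member was called for estradiol in WT, for the interaction or for KO against WT under placebo in any alternative. The number of genes called moved more than 1.5-fold in several. For estradiol in WT it was 225, and 639 in DESeq2, 128 in limma-voom, 389 without scaling (300 higher and 89 lower, against 95 and 130) and 448 at a threshold of 0.1. Without scaling the median log2 fold change of all genes in WT was 0.139 and that of the members 0.274, against 0.00232 and 0.144 with TMM; the median of all genes also passed 0.1 without scaling for averaged estradiol (0.101) and for genotype under placebo (0.103). For estradiol in KO it was 396, and 936 in DESeq2, 226 with only the groups compared, 629 with the replicate block and 714 at 0.1. The members called there numbered 2 in DESeq2 and at 0.1 (Junb and Egr1) and 2 without both sample 3 of KO Plb and sample 3 of WT E2 (Junb and Fosl2), but 0 in limma-voom, without scaling and with only the groups compared. For the interaction 167 became 554 in DESeq2, 69 in limma-voom, 301 with the block, 395 at 0.1 and 91 without both libraries. For KO against WT under placebo 1 became 38 in DESeq2, 17 with the block and 2 without both libraries. Under estradiol 1667 became 2512 at 0.1 and 961 without both, with 1 member called there, at 0.1 (Fosl1) and with only the groups compared. For the averaged estradiol effect 580 became 1162 in DESeq2 and 1098 at 0.1, and the members called were 1 in limma-voom, 0 without scaling and 0 with the block. For averaged genotype 1069 became 1895 in DESeq2, 2295 at 0.1 and 698 without both, with 1 member called in DESeq2 and at 0.1.

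With each library left out in turn, genes called ran between 113 (without sample 1 of WT E2) and 285 for estradiol in WT, 105 (without sample 1 of KO Plb) and 505 in KO, 68 (without sample 1 of WT E2) and 270 (without sample 1 of KO E2) for the interaction, 1 and 50 (without sample 1 of WT Plb) for genotype under placebo, 867 (without sample 2 of KO E2) and 1850 for genotype under estradiol, 292 (without sample 2 of KO Plb) and 762 for averaged estradiol, and 408 (without sample 2 of WT Plb) and 1711 (without sample 1 of WT Plb) for averaged genotype. Members called ran between 0 and 2 for estradiol in KO, 0 and 1 for genotype under estradiol, 0 and 3 for averaged estradiol and 0 and 1 for averaged genotype. The cause of these shifts was not tested.

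Estimates that changed sign had not been called. For estradiol in WT the replicate block gave -0.50 for Fosb, -0.12 for Jund and -0.19 for Atf3, and leaving out both libraries gave -0.66, -0.26 and -0.57. For estradiol in KO, Atf3 was 0.0205 in limma-voom and 0.16 with the block, and without both libraries Fosb was 0.29, Jun 0.22, Jund 0.0896 and Atf3 0.85. With each library left out in turn, estimates in WT ran between -0.66 and 0.98 for Fosb (lowest without sample 3 of WT E2), -0.26 and 0.28 for Jund (same library), -0.57 and 1.41 for Atf3 (same library) and -0.11 and 0.37 for Egr1 (lowest without sample 2 of WT Plb). In KO they ran between -1.97 and 0.28 for Fosb, -0.62 and 0.22 for Jun, -0.23 and 0.084 for Jund and -0.74 and 0.84 for Atf3, each highest without sample 3 of KO Plb. The Egr2 interaction ran between -0.15 and 0.26. Besides the averaged Egr2 and Junb results, the replicate block changed no call of a member. Fosl1, at 9 to 64 counts per library, is limited by depth.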
